A study of Paxillus involutus with 25 samples.

Results

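Of the 25 RNA-seq libraries of the series, 10 were compared here: 5 cultures of the ectomycorrhizal fungus Paxillus involutus grown on potassium-depleted agar with flakes of phlogopite, and 5 grown on the same agar with no mineral. The 10 libraries were taken by their labels, and all 12744 of 18032 gene IDs that passed a filter on low counts were tested. Every culture was of strain ATCC 200175. Both groups lacked KH2PO4, so both lacked the phosphate of that salt along with its potassium, and no condition of the series is labelled as an inert flake. Per the labels, flakes of about 2 cm2 lay on a cellophane membrane with 5 mm agar plugs of the fungus around them, and the dishes were incubated for 21 days in darkness at 25 °C. RNA came from mycelium taken off the membrane, and each library is labelled as a biological replicate. The other groups of the series, which entered the model as a shared estimate of the spread, were K-depleted medium with muscovite, K-depleted medium with K-vermiculite, and complete MMN medium, with 5 cultures each.

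Phlogopite is a magnesium-bearing mica. Its potassium sits between the silicate sheets and is not dissolved in the medium, and ectomycorrhizal fungi are known to weather such minerals with acids, chelating compounds and the mechanical force of hyphae, and to pass mineral nutrients to tree roots. The comparison asks which transcripts change when this potassium source is added to a medium without potassium, and, because replicate cultures varied widely, which of those changes were present in each of the 5 cultures. The deposited table gives IDs without product names, so apart from 2 genes with symbols the genes are named by ID and no function is given for them.

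Library totals ran from 24.8 to 33.6 M counts with phlogopite and from 25.8 to 33.3 M on K-depleted medium (1 M is 1000000). The common biological coefficient of variation, a measure of the relative spread between replicates, was 13.9% within the phlogopite group and 13.6% within the K-depleted group, against 8.42% with K-vermiculite, 10.7% on complete medium and 11.9% with muscovite. In a principal component analysis of the 10 libraries, the first component (35.8% of the variance) placed K-depleted cultures 1 to 3 between -17.7 and -15.4 and phlogopite cultures 4 and 5 at 29.1 and 28.2. Phlogopite cultures 1 and 2, both at -9.11 to -9.14, lay on the K-depleted side of K-depleted cultures 4 and 5, at -0.403 and -0.119, and phlogopite culture 3 lay between these and cultures 4 and 5. The second component (19.4%) set K-depleted culture 4 apart, at -34.3 against -3.43 to 10.5 for the other 9 libraries. Pearson correlations of log2 CPM (counts per 1000000) between phlogopite cultures ran from 0.986 to 0.996, and those between a phlogopite and a K-depleted culture from 0.983 to 0.995. The groups thus overlapped as whole libraries.

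Phlogopite changed 656 genes, 353 higher and 303 lower, in an edgeR quasi-likelihood test with Benjamini-Hochberg adjustment at 0.05, or 5.15% of the genes tested (2.77% higher, 2.38% lower). The changes were small: the median called gene was 1.27-fold higher, or lower by 0.32 on the log2 scale. In 221 of the 656, 92 higher and 129 lower, all 5 phlogopite values lay beyond all 5 K-depleted values (1.73% of tested genes were both called and free of overlap, 0.722% higher and 1.01% lower). Without regard to the call, 445 genes (3.49%) did not overlap. The strictest group, called the consistent genes here, also had to be called in the same direction in each of 10 fits that left out 1 of the 10 cultures. It held 63 genes, 30 higher and 33 lower, or 0.494% of those tested. Their changes ran from 1.17-fold to 1.89-fold among the higher genes and from 1.19-fold to 1.96-fold among the lower. Of the 30 called genes that changed at least 2-fold, 2 had no overlap and 0 were among the consistent genes, although 73 of all tested genes reached a 2-fold change in the edgeR fit. A larger fold was therefore no guide to a change present in every culture, as the plot of fold change against level shows.

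**Figure D1:**
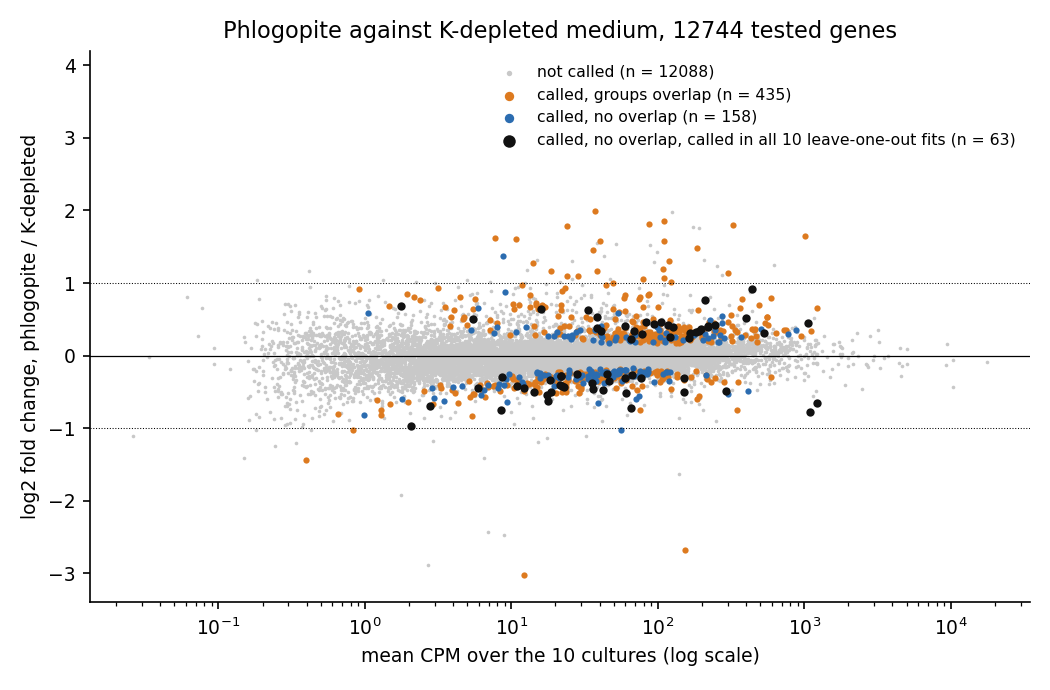
Log2 fold change of phlogopite over K-depleted medium (y axis) against the mean level of each gene over the 10 cultures (x axis, log scale), 1 point per tested gene. The 63 consistent genes (black) lie within the dotted lines that mark 2-fold, whereas 28 of the 30 called genes past those lines are genes whose groups overlap (orange).

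Balance of direction depended on the scaling of the libraries. With library totals in place of TMM factors, 552 genes were called, and the higher ones made up 32.1% of them instead of 53.8%. All 63 consistent genes were called with either scaling. When the 2 groups were fitted without the other 15 libraries, 11 genes were called, 0.0876% of 12562 tested. Of these, 10 were consistent genes. When the leave-one-out fits were also made with the 2 groups alone, 0 genes met the rule for consistent genes. The 63 thus rest on the spread estimated from all 25 libraries. The common coefficient of variation was 13.7% in the fit of the 2 groups alone and 11.9% in the fit of all 25 libraries. The fit of all 25 libraries also has more residual degrees of freedom, and which of these moved the count was not tested. The SE and adjusted p of single genes come from the fit of all 25 libraries unless stated. Its common spread lies below that of phlogopite (13.9%) and K-depleted medium (13.6%), so these values may understate the spread of the 2 groups.

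A set of 4 genes was called in each of 24 fits, which differed in scaling, filter, test, covariates or libraries: PAXINDRAFT_160042 and PAXINDRAFT_162564 (higher), and PAXINDRAFT_162475 and PAXINDRAFT_162512 (lower). PAXINDRAFT_160042 had 24.6, 26.7, 26.9, 27.1 and 26.0 CPM in K-depleted cultures 1 to 5 and 34.2, 41.1, 40.0, 44.3 and 42.7 CPM in phlogopite cultures 1 to 5. The groups were separated by a gap wider than the whole K-depleted range, and the log2 fold change was 0.63 (± 0.09 SE, adjusted p by edgeR 0.00174). PAXINDRAFT_162564, which was picked out after its values were seen, had 181, 173, 187, 189 and 215 CPM on K-depleted medium and 242, 246, 256, 255 and 259.9 CPM with phlogopite (log2 fold change 0.41 ± 0.06 SE, adjusted p by edgeR 0.00174). Its phlogopite cultures lay close together, at 252 ± 7.59 CPM (SD, n = 5), and K-depleted culture 5 was the nearest of the controls.

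Both abundant genes fell in all 5 phlogopite cultures. PAXINDRAFT_162475 had 1504, 1504, 1525, 1222 and 1191 CPM on K-depleted medium and 756, 798, 746, 1010.5 and 736 CPM with phlogopite, a log2 fold change of -0.78 (± 0.12 SE, adjusted p by edgeR 0.00217). Culture 4 was the highest with phlogopite and still below every control. PAXINDRAFT_162512 had 1715, 1558, 1509.5, 1345 and 1382 CPM on K-depleted medium and 926, 953, 798, 1187 and 915 CPM with phlogopite (log2 fold change -0.65 ± 0.11 SE, adjusted p by edgeR 0.00411). Again culture 4 was the highest of the phlogopite cultures.

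By a fixed rule, 12 consistent genes from each end of the fold-change range were named, at a mean of at least 5 CPM over the 10 cultures. Among the higher genes, PAXINDRAFT_66966 had the widest change. It had 239, 233, 303, 301 and 431 CPM on K-depleted medium and 436, 467, 519, 752 and 679.6 CPM with phlogopite (log2 fold change 0.92 ± 0.17 SE, adjusted p by edgeR 0.00804). K-depleted culture 5 and phlogopite culture 1 differed by little, so its groups barely separated. PAXINDRAFT_12900 had 149.8, 161, 140.3, 165 and 157 CPM on K-depleted medium and 177, 200.0, 274, 304 and 359 CPM with phlogopite (log2 fold change 0.77 ± 0.14 SE, adjusted p by edgeR 0.00804). Here the controls were tight, at 155 ± 9.64 CPM (SD, n = 5), and the phlogopite cultures spread widely, at 263 ± 74.6 CPM.

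PAXINDRAFT_88277 had the same uneven form, at 11.6 to 13.5 CPM on K-depleted medium and 14.3, 15.3, 18.8, 20.2 and 29.2 CPM with phlogopite (log2 fold change 0.64). In PAXINDRAFT_103430, by contrast, the phlogopite cultures were nearly equal, at 6.67, 6.02, 6.52, 6.44 and 6.59 CPM against 3.89 to 5.60 CPM in the controls (log2 fold change 0.50). PAXINDRAFT_117609, at 42.2 to 48.8 CPM with phlogopite against 26.3 to 37.0 CPM without, was also called when the 2 groups were fitted alone (adjusted p 0.0391). PAXINDRAFT_99825, at 93.5 to 116 CPM against 76.7 to 86.8 CPM, was called there as well (0.0391). Of the 12 named higher genes, 9 were not called in that fit, among them PAXINDRAFT_66966 (edgeR adjusted p 0.124) and PAXINDRAFT_12900 (0.130).

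The other 5 named higher genes had log2 fold changes from 0.42 to 0.52. PAXINDRAFT_73182 was the most abundant of them, at 1222 CPM on average with phlogopite and 893 ± 108 CPM (SD, n = 5) without. PAXINDRAFT_104349 ran from 408 to 564 CPM with phlogopite and from 262 to 376 CPM without. PAXINDRAFT_165560 averaged 96.9 CPM against 70.0 CPM, PAXINDRAFT_13607 121 against 88.1 CPM, and PAXINDRAFT_152836 281 against 210.02 CPM. In PAXINDRAFT_13607 and PAXINDRAFT_152836 the nearest values of the 2 groups, 99.9 against 98.1 CPM and 259.9 against 255 CPM, were close, with K-depleted culture 5 as the highest control in both.

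Among the lower genes, PAXINDRAFT_100331 had 10.1, 12.6, 11.0, 9.88 and 9.40 CPM on K-depleted medium and 7.53, 8.04, 6.37, 4.42 and 4.96 CPM with phlogopite (log2 fold change -0.75 ± 0.14 SE, adjusted p by edgeR 0.00804). PAXINDRAFT_172291 had 87.4, 91.9, 90.1, 71.5 and 66.4 CPM on K-depleted medium and 56.5, 61.2, 49.0, 40.1 and 40.1 CPM with phlogopite (log2 fold change -0.72 ± 0.12 SE, adjusted p by edgeR 0.00354). In both, phlogopite cultures 4 and 5 were the lowest and K-depleted culture 5 was the lowest control. PAXINDRAFT_174044 fell from 21.5 ± 2.17 to 13.9 CPM (SD, n = 5; log2 fold change -0.63, edgeR adjusted p 0.00212), again with cultures 4 and 5 lowest, at 11.6 CPM each.

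PAXINDRAFT_162188 differed from these in having even phlogopite cultures, at 242, 252, 235, 258 and 239 CPM against 365, 369, 344, 326 and 313 CPM in the controls (log2 fold change -0.49 ± 0.08 SE, adjusted p by edgeR 0.00411). PAXINDRAFT_128764 fell from 48.7 ± 4.57 to 35.1 ± 2.54 CPM (SD, n = 5; log2 fold change -0.47, edgeR adjusted p 0.00212). Both were called with the 2 groups fitted alone, at adjusted p 0.0260 and 0.0391. Of the 12 named lower genes, 8 were not called in that fit, among them PAXINDRAFT_100331 (edgeR adjusted p 0.119) and PAXINDRAFT_172291 (0.118). The remaining named lower genes, PAXINDRAFT_80811, PAXINDRAFT_18660, PAXINDRAFT_76935, PAXINDRAFT_103988 and PAXINDRAFT_91598, had log2 fold changes from -0.55 to -0.50. PAXINDRAFT_80811 was the closest to overlapping, with 15.8 CPM in K-depleted culture 5 and 15.7 CPM in phlogopite culture 2.

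**Figure D2:**
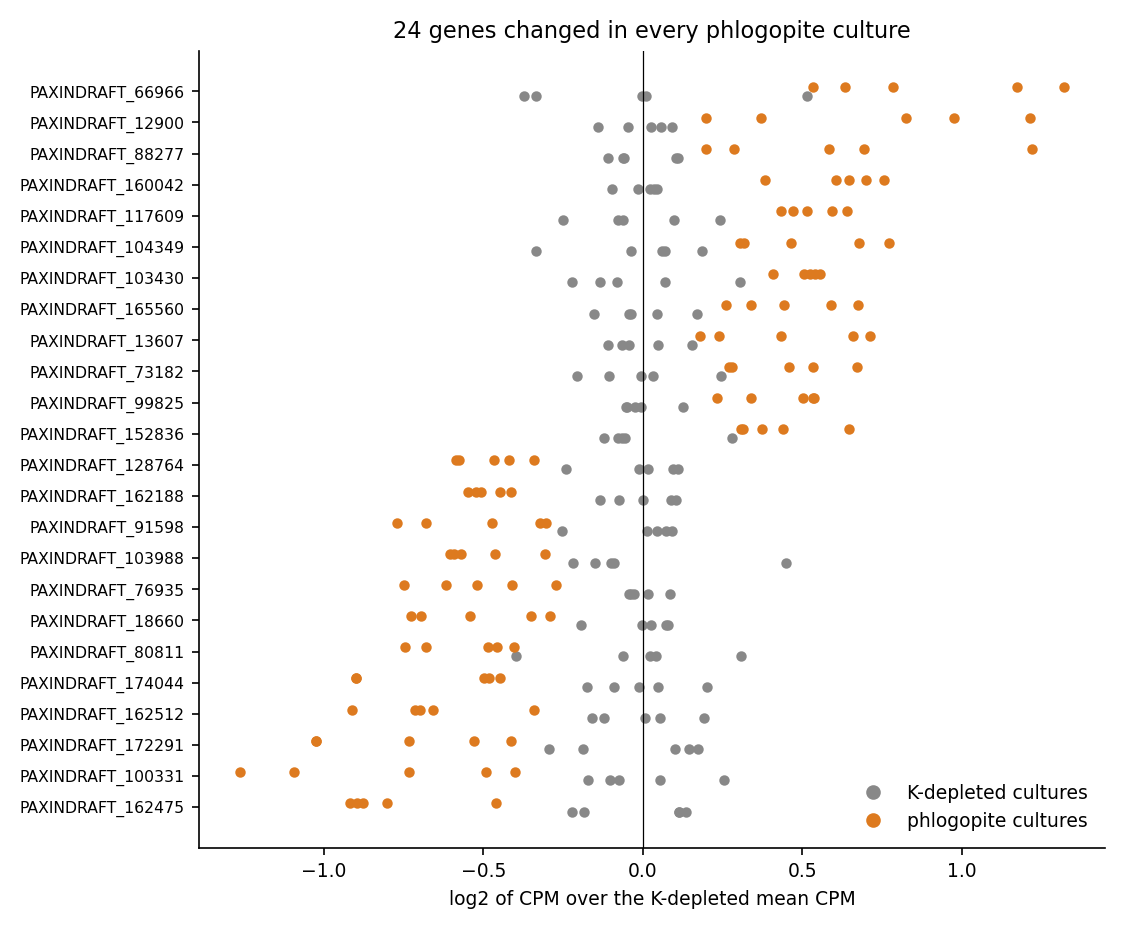
Level of the 24 named consistent genes in single cultures, as log2 of CPM over the K-depleted mean (x axis), with 1 point per culture (grey, K-depleted; orange, phlogopite). For each gene the orange points lie on one side of all grey points, and for genes such as PAXINDRAFT_66966 and PAXINDRAFT_80811 the nearest points of the groups almost touch.

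Single cultures contributed unequally. Over the 30 consistent genes that were higher, the median log2 difference from the K-depleted mean was 0.26, 0.30, 0.42, 0.52 and 0.51 in phlogopite cultures 1 to 5. Over the 33 that were lower it was -0.36, -0.32, -0.43, -0.46 and -0.54. K-depleted culture 5 stood on the phlogopite side of the other controls, at 0.15 and -0.11, while K-depleted cultures 1 to 4 lay between -0.06 and 0.05 in both sets. These genes were chosen with the same libraries, so the values describe the cultures and test nothing. Of the 63, the phlogopite culture nearest to the controls was culture 1 for 19 genes and culture 2 for 31, and the control nearest to phlogopite was culture 5 for 39.

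Over all 656 called genes the same cultures stood nearest and farthest. Phlogopite cultures 4 and 5 lay beyond all 5 controls, in the direction of the call, for 615 and 623 genes (93.8% and 95.0%). Culture 3 did so for 548 genes (83.5%), but cultures 1 and 2 for 342 and 384 (52.1% and 58.5%). Over all 12744 genes, called or not, the shares were 23.0%, 24.9%, 36.2%, 49.7% and 47.4% in cultures 1 to 5, so cultures 4 and 5 were the farther from the controls in general. On the other side, K-depleted culture 5 lay beyond all 5 phlogopite cultures for 49.5% of the called genes, against 78.5% to 93.3% for the other controls. Over all tested genes these shares were 25.7% and 38.9% to 42.0%.

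**Figure D3:**
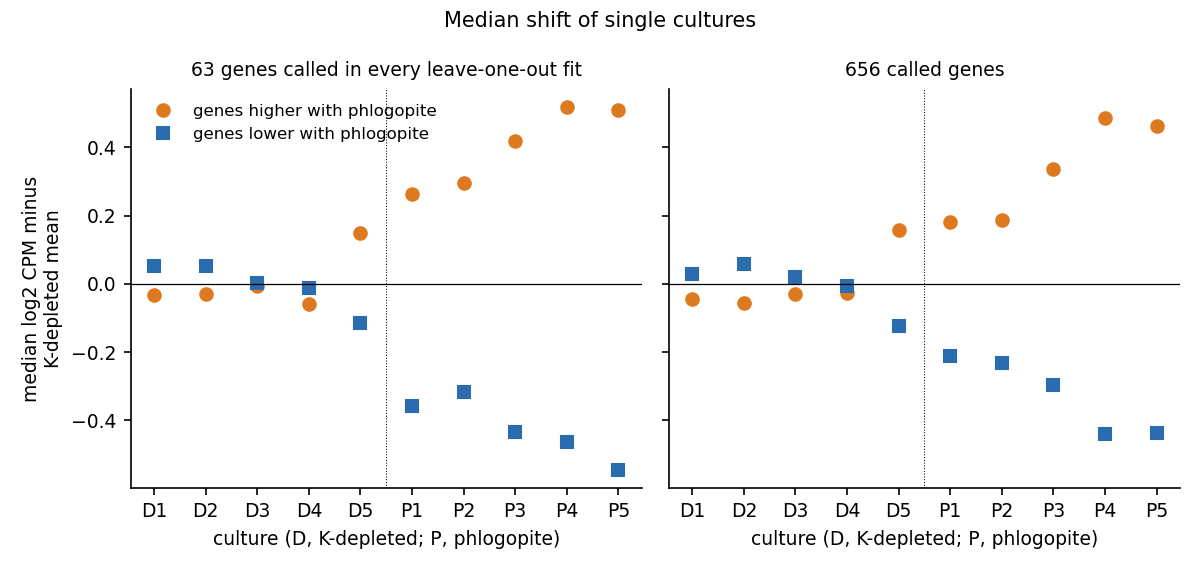
Median difference of log2 CPM from the K-depleted mean (y axis) in each culture (x axis; D1 to D5, K-depleted; P1 to P5, phlogopite), over the 63 consistent genes (left) and the 656 called genes (right), higher and lower genes apart. Medians of P1 and P2 lie nearer to 0 than those of P3 to P5, and D5 departs from D1 to D4 towards the phlogopite cultures.

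After the 221 genes that moved in all 5 cultures, the most frequent set was that of 151 genes (111 higher, 40 lower) in which phlogopite cultures 3, 4 and 5 lay beyond all controls and cultures 1 and 2 did not. That set made up 23.0% of the calls, against 10.5% of all tested genes, and its median absolute log2 fold change was 0.42, against 0.30 for the 221. It held 22 of the 25 genes called at least 2-fold higher. Cultures 2 to 5 without culture 1 made up 85 genes (12.96% of the calls, 2.44% of tested genes), and cultures 1, 3, 4 and 5 without culture 2 made up 58 (8.84% and 2.64%). Cultures 4 and 5 alone made up 33, a smaller share of the calls (5.03%) than of tested genes (9.54%).

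The number of calls followed these differences. Leaving out phlogopite culture 1 or 2 raised it to 1263 or 1278, and leaving out K-depleted culture 5 raised it to 1378. Leaving out phlogopite culture 3, 4 or 5 lowered it to 325, 130 or 96. Leaving out K-depleted culture 1, 2, 3 or 4 lowered it to 205, 141, 198 or 367. Of the 656 genes, 96 were still called without phlogopite culture 5 and 636 without K-depleted culture 5. Of the 221 called genes without overlap, 69 and 219 were. Without both phlogopite cultures 4 and 5, a setting added after the data were seen, 5 genes were called, all of them consistent genes: PAXINDRAFT_162475, PAXINDRAFT_162512, PAXINDRAFT_160042, PAXINDRAFT_162564 and PAXINDRAFT_164973. Without both cultures 1 and 2, 2221 were called.

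**Figure D4:**
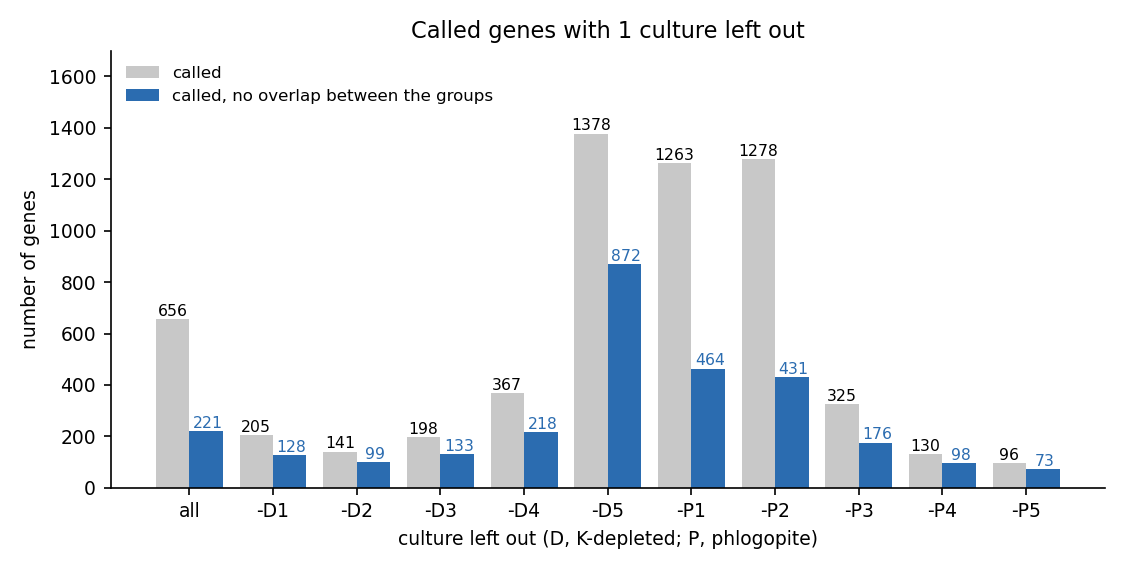
Number of genes called by edgeR (grey bars) and of those called with no overlap between the groups (blue bars), with all libraries and with each culture left out in turn (x axis; D, K-depleted; P, phlogopite). Counts run from 96 without P5 to 1378 without D5, and the blue bars from 73 to 872.

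The widest called changes were not shared by all cultures. PAXINDRAFT_166120, the called gene with overlapping groups and the highest log2 fold change (2.00 ± 0.50 SE, adjusted p by edgeR 0.0290), had 8.96, 10.1, 10.5, 20.8 and 24.1 CPM on K-depleted medium and 19.8, 16.2, 58.7, 104 and 99.7 CPM with phlogopite. Phlogopite cultures 1 and 2 lay within the range of the controls and cultures 3 to 5 above it. PAXINDRAFT_80575 had 40.3, 41.2, 39.5, 56.6 and 60.3 CPM on K-depleted medium and 44.3, 39.7, 184, 218 and 372 CPM with phlogopite (log2 fold change 1.85 ± 0.50 SE, adjusted p by edgeR 0.0395). PAXINDRAFT_90118 had the same 3 cultures highest, at 147, 174 and 290.2 CPM, with 38.0 and 32.4 CPM in phlogopite cultures 1 and 2 and 28.6 to 51.5 CPM in the controls (log2 fold change 1.81, edgeR adjusted p 0.0408). All 3 calls were lost without phlogopite culture 3, 4 or 5, at adjusted p up to 0.103, 0.150 and 0.153, and also without K-depleted culture 1, 2 or 3.

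In the other direction, 2 called genes were high in a few of the controls. PAXINDRAFT_91567 had 2.20, 2.54, 11.1, 81.6 and 10.7 CPM on K-depleted medium and 1.34 to 3.76 CPM with phlogopite (log2 fold change -3.03 ± 0.78 SE, adjusted p by edgeR 0.0325). PAXINDRAFT_176752 had 42.1, 41.4, 56.2, 1001 and 177 CPM on K-depleted medium and 31.8 to 46.6 CPM with phlogopite (log2 fold change -2.67 ± 0.74 SE, adjusted p by edgeR 0.0413). K-depleted culture 4 was the highest in both, and K-depleted cultures 1 and 2 lay within the phlogopite range. Without K-depleted culture 4 both calls were lost, with log2 fold changes of -1.34 and -0.94 (adjusted p 0.144 and 0.248). They were also lost without phlogopite culture 3, 4 or 5, at adjusted p from 0.0572 to 0.117, and the first also without K-depleted culture 3 (0.0517). PAXINDRAFT_14186, also lower with overlapping groups, had 6.86, 7.57, 7.61, 6.60 and 5.99 CPM on K-depleted medium and 3.92, 6.35, 3.71, 2.31 and 3.01 CPM with phlogopite (log2 fold change -0.83, edgeR adjusted p 0.0175). Here phlogopite culture 2 alone overlapped the controls. With limma-voom in place of edgeR, the calls of PAXINDRAFT_166120, PAXINDRAFT_80575, PAXINDRAFT_90118, PAXINDRAFT_91567 and PAXINDRAFT_176752 were lost (adjusted p 0.0742 to 0.210), and that of PAXINDRAFT_14186 was not (0.0108).

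Of the genes called at least 2-fold, 2 had no overlap, PAXINDRAFT_91826 (higher, log2 fold change 1.37) and PAXINDRAFT_10537 (lower, -1.02). They were called in 7 and 4 of the 10 leave-one-out fits. Of the 25 genes called at least 2-fold higher, culture 5 was the highest phlogopite culture in 20, culture 4 in 4 and culture 3 in 1. Without phlogopite culture 4, and likewise without phlogopite culture 5, 1 of the 30 at least 2-fold calls remained. Without phlogopite culture 1, 2 or 3, 29, 30 or 10 remained. Leaving out K-depleted culture 1, 2, 3, 4 or 5 kept 7, 3, 6, 11 or 30, so the losses were not limited to phlogopite cultures 4 and 5.

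The consistent genes were set beside the other growth conditions, in comparisons that share either the phlogopite or the K-depleted libraries with the one above and so are not independent of it. The gene PAXINDRAFT_162475 averaged 1389 ± 168 CPM (SD, n = 5) on K-depleted medium, 809 ± 115 with phlogopite, 592 ± 35.1 with muscovite, 1176 CPM with K-vermiculite and 2389 CPM on complete medium. It was higher with phlogopite than with muscovite (log2 fold change 0.45, edgeR adjusted p 0.0367). PAXINDRAFT_172291 had a like order, except that its mean with phlogopite lay below that with muscovite. It had 81.5 CPM on K-depleted medium, 49.4 with phlogopite, 56.5 with muscovite, 77.5 with K-vermiculite and 186 on complete medium. Its phlogopite and muscovite levels did not differ beyond the replicate spread (edgeR adjusted p 0.366). PAXINDRAFT_18660 had another order, at 71.5, 50.2, 44.5, 22.3 and 15.4 CPM in the same sequence of groups, so its level with phlogopite lay between those on K-depleted and complete medium. PAXINDRAFT_91598 followed it, at 177, 126, 111, 60.7 and 41.3 CPM. For both genes the phlogopite and muscovite levels were not distinguished (edgeR adjusted p 0.364 and 0.302). PAXINDRAFT_162512 averaged 1502 CPM on K-depleted medium, 956 with phlogopite and 811 with muscovite. In these groups PAXINDRAFT_160042 averaged 26.2, 40.5 and 33.1 CPM, and PAXINDRAFT_162564 189, 252 and 243 CPM. Muscovite against K-depleted medium was called for each, in that order (edgeR adjusted p 1.9e-05, 0.0399 and 0.000622). Phlogopite against muscovite was not (0.233, 0.0689 and 0.689).

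**Figure D5:**
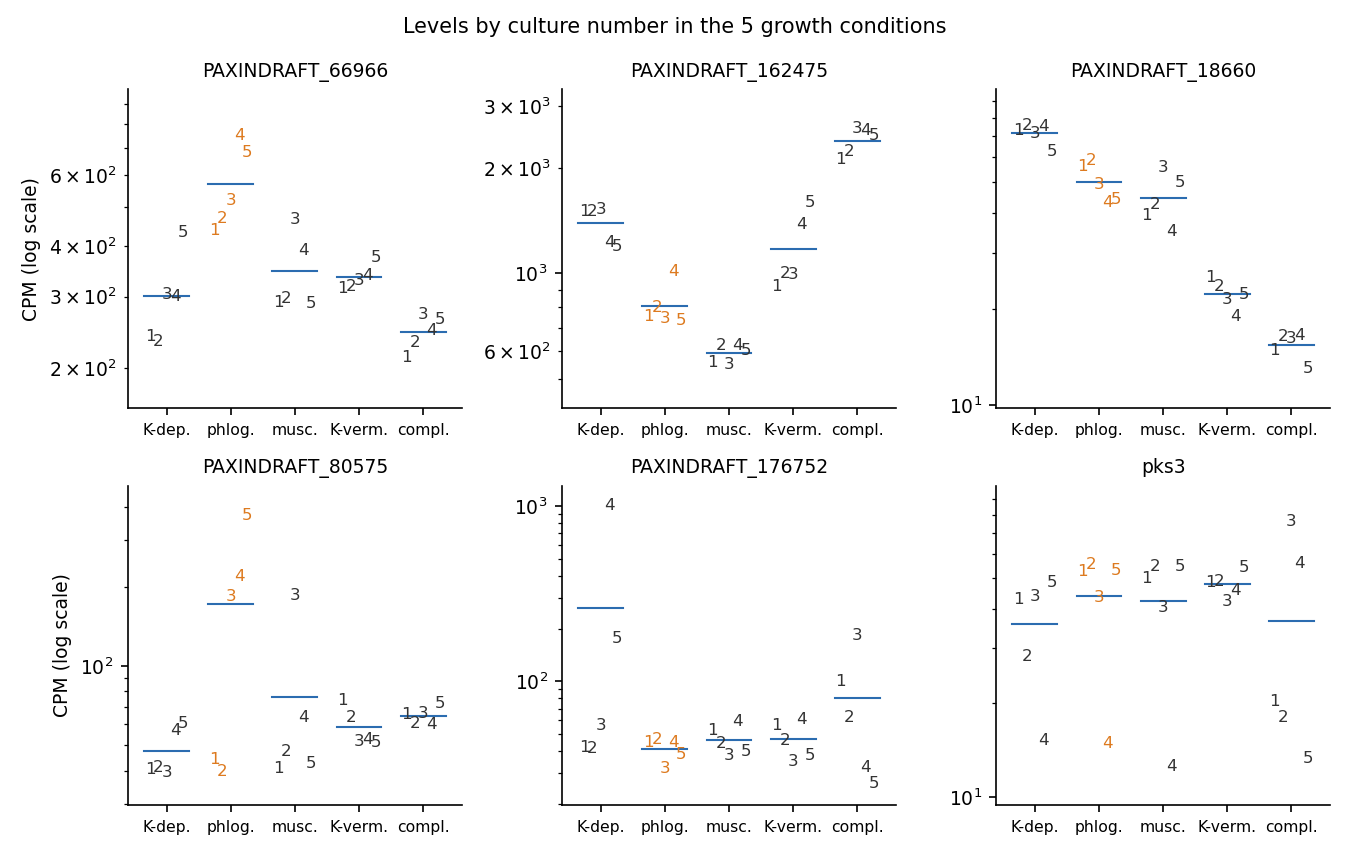
CPM (y axis, log scale) of 6 genes in the 5 growth conditions, each culture drawn as its replicate number and the group mean as a blue line. PAXINDRAFT_66966 and PAXINDRAFT_162475 separate phlogopite (orange) from K-depleted medium in all 5 cultures, and PAXINDRAFT_80575 does so in cultures 3 to 5. The K-depleted mean of PAXINDRAFT_176752 is set by cultures 4 and 5, and culture 3 on complete medium is also high (183 CPM). The gene pks3 is low in culture 4 of 3 groups.

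Phlogopite gave the highest group mean of the 5 conditions for 21 of the 30 consistent higher genes and the lowest for 24 of the 33 lower ones. Over all tested genes, phlogopite gave the highest mean for 42.4% of those above K-depleted medium and the lowest for 42.5% of those below it. The 63 were chosen for lying beyond the K-depleted values, which favours an extreme mean, so these counts are a description. A stricter count asked for a call in the same direction against each of the other 4 groups. Across all tested genes, 34 (0.267%) were higher and 31 (0.243%) lower with phlogopite than in each other group. Consistent genes among these were 5 higher and 7 lower. PAXINDRAFT_66966 was one, at 571 ± 138 CPM (SD, n = 5) against 346 with muscovite, 335 with K-vermiculite and 245 on complete medium, with edgeR adjusted p of 0.0169 against muscovite. Muscovite culture 3, at 466 CPM, lay above phlogopite culture 1, at 436 CPM, so the phlogopite and muscovite groups overlapped. PAXINDRAFT_21656, which falls outside the rule for named genes and was chosen after its values were seen, averaged 586 ± 15.4 CPM with phlogopite against 471, 478, 471 and 314 CPM on K-depleted medium, with muscovite, with K-vermiculite and on complete medium (edgeR adjusted p 0.00840 against muscovite). PAXINDRAFT_100331 was the lower gene of that kind among the named ones, at 6.27 CPM with phlogopite against 8.84 with muscovite (edgeR adjusted p 0.0493) and 10.6 to 13.2 CPM in the other 3 groups. In the direct comparison of phlogopite with muscovite, 14 of the 63 consistent genes were called, where 4.15% of all tested genes were. Against K-vermiculite 52 of the 63 were called (50.4% of all tested genes) and against complete medium 51 (68.1%). Opposite in direction to the change against K-depleted medium were 1 of the 14, 5 of the 52 and 6 of the 51. Since the 63 were chosen with the same phlogopite libraries, those shares are descriptions. Against K-depleted medium itself, 3.36% of the tested genes were called with muscovite, 46.2% with K-vermiculite and 67% on complete medium.

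The table names 2 genes by symbol, nps2 and pks3. Such symbols are used in fungi for nonribosomal peptide synthetases and polyketide synthases, large enzymes of secondary metabolism. The gene nps2 had 109, 104, 103, 126 and 123 CPM on K-depleted medium and 124, 138, 131, 167 and 139 CPM with phlogopite. Phlogopite culture 1 lay just below K-depleted culture 4, so the groups overlapped, and the gene was called (log2 fold change 0.31, edgeR adjusted p 0.0200) in 5 of the 10 leave-one-out fits. For pks3 the values were 42.9, 28.1, 43.7, 15.1 and 48.4 CPM on K-depleted medium and 52.5, 55.3, 43.4, 14.8 and 52.9 CPM with phlogopite. Culture 4 was the lowest of both groups, and no difference beyond the replicate spread was found (log2 fold change 0.29 ± 0.46 SE, adjusted p by edgeR 0.742).

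Higher and lower genes differed in level and length. The 30 consistent higher genes had a median level of 119 CPM over the 10 cultures and a median span of 2295 bases in the reference annotation of the strain. The 33 lower ones had medians of 22.8 CPM and 1465 bases, against 27.4 CPM and 1413 bases over all tested genes. Among all 656 calls the medians were 85.0 CPM and 2095 bases for higher genes and 34.4 CPM and 1486 bases for lower ones. CPM is not scaled by length, so long genes draw more counts at equal abundance, and the part of length in these calls was not tested. The annotation lists genes in order without scaffold names, so neighbours are consecutive entries and a few pairs may join scaffolds. In that order, 45 pairs of called genes were neighbours and 32 of the pairs changed in the same direction, where 53.5% of all neighbouring pairs of tested genes shared a sign. Of those pairs, 7 joined 2 called genes without overlap, among them PAXINDRAFT_15138, PAXINDRAFT_15139 and PAXINDRAFT_177235 in a row, which were all lower (log2 fold changes -0.24, -0.26 and -0.31). Each library pools the mycelium of a dish, so a change in RNA per hypha and a change in the share of hyphae in some state cannot be told apart.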

How the data were processed

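The authors deposited whole-number counts per gene for 25 cultures, from TruSeq Stranded mRNA libraries per the labels' protocols. The submitters' processing notes name bcl2fastq 2.19, STAR 2.5.2b and HTSeq. The genome build, the strand setting and the treatment of reads from near-identical genes are not stated in any source used here, so overlapping genes and gene copies are uncertain. No coordinates are printed. A reference annotation of the strain supplied gene spans and order for all tested IDs. It gives no product names, proteins or promoters, so the planned lists and sequence features were not run.

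Counts were analysed with edgeR 4.0.16 in R 4.3.3. Genes passed filterByExpr (minimum count 10, minimum total 15). TMM factors and 1 coefficient per group were used on all 25 libraries (estimateDisp, robust glmQLFit, quasi-likelihood F-test), with Benjamini-Hochberg adjustment over 12744 genes and a threshold of 0.05. The SE is the absolute log2 fold change over the square root of F. CPM uses TMM factors, and medians of single cultures use log2 CPM with a prior count of 2. Depth was 24.8 to 33.6 M counts in the 10 libraries. No replicates agreed within counting noise: chi-square per degree of freedom was 11.7 to 80.7. The scripts were tested on simulated data.

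Named genes were the 12 highest and 12 lowest log2 fold changes among the consistent genes at a mean of at least 5 CPM, nps2 and pks3, and the 3 highest and 3 lowest among called genes with overlapping groups. Alternatives used limma 3.58.1, DESeq2 1.42.0 and sva 3.50.0, other scalings and filters, 2-group fits, the replicate number as a block and each of the 10 cultures left out. The comparison, lists and rules were chosen with earlier results of these data known.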

Additional observations from a re-analysis of the deposited data

Results flagged for a closer look

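For each of the 32 named genes, the 5 cultures of both groups were checked for a highest or lowest value far from the other 4 by Dixon's test at 95%. Of 64 sets, 7 were set apart. Except for nps2 and pks3, the genes were chosen by their values in these same libraries, and the sets share cultures. The count can therefore not be read against the 1 in 20 of the test. On K-depleted medium, culture 4 stood apart as the highest for PAXINDRAFT_176752 (1001 CPM, the next 177), PAXINDRAFT_91567 (81.6 CPM, the next 11.1) and PAXINDRAFT_103988 (22.8 CPM, the next 15.7). K-depleted culture 5 stood apart as the highest for PAXINDRAFT_152836 (255 CPM, the next 202) and as the lowest for PAXINDRAFT_91598 (149 CPM, the next 179), in both cases towards the phlogopite values. K-depleted culture 3 was the highest for PAXINDRAFT_99825 (86.8 CPM, the next 79.4). With phlogopite, culture 4 was the highest for PAXINDRAFT_162475 (1010.5 CPM, the next 798), towards the K-depleted values.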

How the results depend on the processing

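Against 656 calls (353 higher, 303 lower; 221 without overlap), the 2 groups fitted alone gave 11 (5, 6; 11), the replicate block with the 2 groups fitted alone 113 (63, 50; 47), 1 surrogate variable 1406 (785, 621) and the DESeq2 Wald test 1124 (641, 483). Library totals alone called 177 genes higher, and limma-voom with sample weights, added after the data were seen, called 457 lower. Without phlogopite cultures 4 and 5 there were 5 calls (2, 3; 5), and without cultures 1 and 2 there were 2221 (1186, 1035; 1639), both added after the data were seen. Leaving out 1 culture at a time gave 96 to 1378 calls, 49 to 739 higher, 47 to 639 lower and 73 to 872 without overlap. The 63 consistent genes became 66 with DESeq2 size factors (62 shared), 82 with the replicate block (59 shared) and 0 in edgeR with the 2 groups fitted alone. In that last setting 358 genes without overlap had an unadjusted edgeR p under 0.05 in every fit, and with all libraries also 358. Lack of overlap by itself favours a low p, so these 2 counts are descriptions. All 63 were called by DESeq2, limma-voom and the fit with the replicate block. The replicate block on all libraries gave 927 calls, without PAXINDRAFT_80575, PAXINDRAFT_91567 and PAXINDRAFT_176752 (adjusted p 0.0545, 0.0690 and 0.103). Deviations of same-numbered cultures correlated at 0.0823 to 0.316, and those of differently numbered cultures at -0.283 to 0.231. Of the 5 phlogopite cultures, 3 correlated best with their own number. The fit behind the 656 calls did not use the numbers, so any effect shared by same-numbered cultures stayed in it. Whether the numbers mark pairs was not tested. No named consistent gene changed direction, and pks3, not called, had a log2 fold change of -0.0557 with 1 surrogate variable. The causes were not tested.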

Other observations

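The low pks3 value of culture 4 was seen in muscovite too. There pks3 had 49.9, 54.5, 40.3, 12.5 and 54.5 CPM in cultures 1 to 5, and culture 4 was again the lowest, as on K-depleted medium (15.1 CPM) and with phlogopite (14.8 CPM). With K-vermiculite the 5 values lay between 42.2 and 54.1 CPM, and culture 4 was not low. On complete medium they were 20.2, 17.9, 76.1, 55.6 and 13.3 CPM.

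High values of PAXINDRAFT_80575, PAXINDRAFT_90118 and PAXINDRAFT_166120 in phlogopite cultures 3 to 5 had a counterpart in muscovite culture 3. That culture had 185 CPM of PAXINDRAFT_80575, where the other 4 had 40.9 to 63.7 CPM. It had 151 CPM of PAXINDRAFT_90118, where the others had 31.3 to 55.6 CPM. Of PAXINDRAFT_166120 it had 69.1 CPM and muscovite culture 4 had 47.8 CPM, where the others had 16.4 to 20.6 CPM. With K-vermiculite all 5 values of PAXINDRAFT_166120, 36.4 to 61.4 CPM, lay above the highest K-depleted value, 24.1 CPM. K-vermiculite values of PAXINDRAFT_80575 and PAXINDRAFT_90118 overlapped the K-depleted range. On complete medium PAXINDRAFT_80575 lay between 60.03 and 72.1 CPM and PAXINDRAFT_166120 between 48.7 and 67.1 CPM. Of the 435 called genes whose groups overlapped, 19 were called against K-depleted medium in all 10 leave-one-out fits. PAXINDRAFT_80575, PAXINDRAFT_90118 and PAXINDRAFT_166120, called in 3, 3 and 4 of those fits, were not among them.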
